A study of Arabidopsis thaliana with 20 samples.

Results

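The transcripts described here come from the chloroplast genome of *Arabidopsis thaliana*. They were taken as every row of the count tables whose gene ID starts with ATCG, which gave 133 of 37184 rows, and no measured value entered that choice. The other organelle, the mitochondrion, has 152 rows (IDs starting with ATMG), and the remaining 36899 rows are nuclear genes. RNA was measured by 3′RNA-seq, in which reverse transcription starts from an oligo(dT) primer and only the fragment next to that primer is sequenced.

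The study compared a mutant with its wild type. *msh-1* carries a T-DNA insertion that disrupts *MUSHER*, a long non-coding RNA transcribed next to *DOG1*, a central regulator of seed dormancy, and it is a single insertion line in the Col-0 accession; the WT is Col-0 without the insertion. Each genotype has 4 libraries, which the labels describe as siliques from 13 to 20 days after pollination of plants grown in a long-day greenhouse, while the study, in its results, calls the material of this experiment freshly harvested seeds. *MUSHER* was not analysed here as a transcript of its own, so the insertion was not checked in these libraries.

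A chloroplast carries its own small genome, a remnant of the cyanobacterium from which the organelle descends. It encodes core subunits of the photosystems, the cytochrome b6f complex, the ATP synthase and the NDH complex, the large subunit of Rubisco, part of the chloroplast ribosome, and the ribosomal and transfer RNAs, while most other chloroplast proteins are encoded in the nucleus and imported. The genes are copied both by a bacterial-type polymerase and by nuclear-encoded polymerases of the phage type, often as long transcripts of several genes, and many of the messages are then cut, spliced and edited. Unlike nuclear messages, chloroplast messages do not carry a long protective poly(A) tail, and adenine-rich tails on chloroplast RNA are known as marks for degradation. In a maturing seed the embryo is green for a time and then loses its chlorophyll as it dries.

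The reference annotation (RefSeq, TAIR10.1) lists chloroplast genes under other identifiers than the count tables, and 0 of the 133 IDs could be looked up directly. Notes in that annotation name a few of the IDs as the closest relatives of nuclear genes, and these were matched to the chloroplast genes by protein similarity to those relatives. The names are therefore inferred, from identities of 32.8% (*cemA*) to 88.2% (*ndhJ*, through a pseudogene), and for ATCG00430 the note gives photosystem II protein G where the chloroplast annotation of the matched gene gives *ndhK*. The 6 described here are ATCG00420 (*ndhJ*) and ATCG00430 (*ndhK*), subunits of the NDH complex of cyclic electron flow, ATCG00530 (*cemA*), an envelope membrane protein, ATCG00660 (*rpl20*) and ATCG01310 (*rpl2*), proteins of the chloroplast ribosome, and ATCG00670 (*clpP*), the proteolytic subunit of the stromal Clp protease. Any other member is given by ID only, so its role is not stated. These 6 are described because the reference names them, whatever their values.

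On the TAIR10.1 chloroplast sequence of 154478 bases (named Pltd), *rpl20* lies on the minus strand at 68512 to 68865 and *clpP* on the same strand at 69910 to 71882, with 1044 bases between them that hold 1 annotated exon of another gene. *rpl20* is a single coding exon of 354 bases, whereas *clpP* has 3 coding exons in 1973 bases. Adjacent on the minus strand are *ndhJ* at 48677 to 49153 and *ndhK* at 49257 to 49934. *cemA* is found on the plus strand at 60741 to 61430 and *rpl2* on the plus strand at 152806 to 154312, with a second copy of identical sequence elsewhere in the chloroplast genome. Of 130 annotated gene positions in this genome, 32 occur in 2 identical copies.

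Because an oligo(dT) primer pairs with adenines, the longest run of A in each of the 6 genes is shown, in capitals, with up to 20 bases on each side, 5′ to 3′ on the coding strand of the RefSeq TAIR10.1 chloroplast sequence. Where runs tied in length the last one is shown, and *cemA* has 2 runs of 6. A run of A is a feature of the sequence, and no priming site was mapped in these data.
*clpP*, in an intron, Pltd:70384-70436: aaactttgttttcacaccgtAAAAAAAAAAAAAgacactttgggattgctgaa
*rpl20*, in the coding exon, Pltd:68512-68541: tatacaatttcgaatgacatAAAAAAAtaa
*rpl2*, in a coding exon, Pltd:154190-154236: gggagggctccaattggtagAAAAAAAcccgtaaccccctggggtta
*ndhK*, in the coding exon, Pltd:49871-49916: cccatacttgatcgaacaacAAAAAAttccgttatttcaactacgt
*cemA*, in the coding exon, Pltd:60878-60923: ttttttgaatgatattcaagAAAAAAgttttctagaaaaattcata
*ndhJ*, in the coding exon, Pltd:48818-48861: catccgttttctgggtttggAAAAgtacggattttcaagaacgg
The run has 13 adenines in *clpP*, 7 in *rpl20* and *rpl2*, 6 in *ndhK* and *cemA*, and 4 in *ndhJ*. In *rpl20* it ends 3 bases before the end of the gene, directly ahead of the stop codon. A run of 6 or more adenines on the coding strand is present in 51 of 86 annotated protein-coding positions of the chloroplast genome (59.3%), so it is a common feature there. The genome as a whole is 63.7% A and T.

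Chloroplast transcripts were a small part of every library. Their share of all counts was 0.363%, 0.441%, 0.376% and 0.344% in the *msh-1* libraries 1 to 4, against 0.382%, 0.307%, 0.341% and 0.375% in the WT libraries 1 to 4. The genotypes overlapped, with *msh-1* 2 the highest and WT 2 the lowest of the 8. The mean was 0.381% ± 0.0418 in *msh-1* and 0.351% ± 0.0345 in WT (SD, n = 4 each), a difference of 0.0297 percentage points that is smaller than either SD. Exact binomial 95% intervals, which cover counting error only, ran from 0.432% to 0.449% in *msh-1* 2 and from 0.3002% to 0.314% in WT 2. In a bulk sample fewer cells with chloroplasts, less chloroplast RNA per cell and fewer adenines for the oligo(dT) primer cannot be told apart. The share is one of primed counts and is not read as the abundance of chloroplast RNA.

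Mitochondrial transcripts held 0.593%, 0.917%, 0.742% and 0.642% of the counts in *msh-1* and 0.876%, 0.577%, 0.625% and 0.514% in WT. The 2 libraries with the highest mitochondrial share, *msh-1* 2 and WT 1, were also the highest in chloroplast share within their genotype, and WT 4 had the lowest mitochondrial share and the second-highest chloroplast share of WT. Chloroplast counts were 0.534 ± 0.057 times the mitochondrial counts in *msh-1* and 0.561 ± 0.123 times in WT (SD, n = 4 each), with overlapping values. The mitochondrial total was mostly ATMG00020, at 5632 of 7155 CPM in *msh-1* and 5145 of 6541 CPM in WT (means). The ratio thus largely sets the chloroplast rows against that row, and the types of RNA in the totals were not matched.

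**Figure D1:**
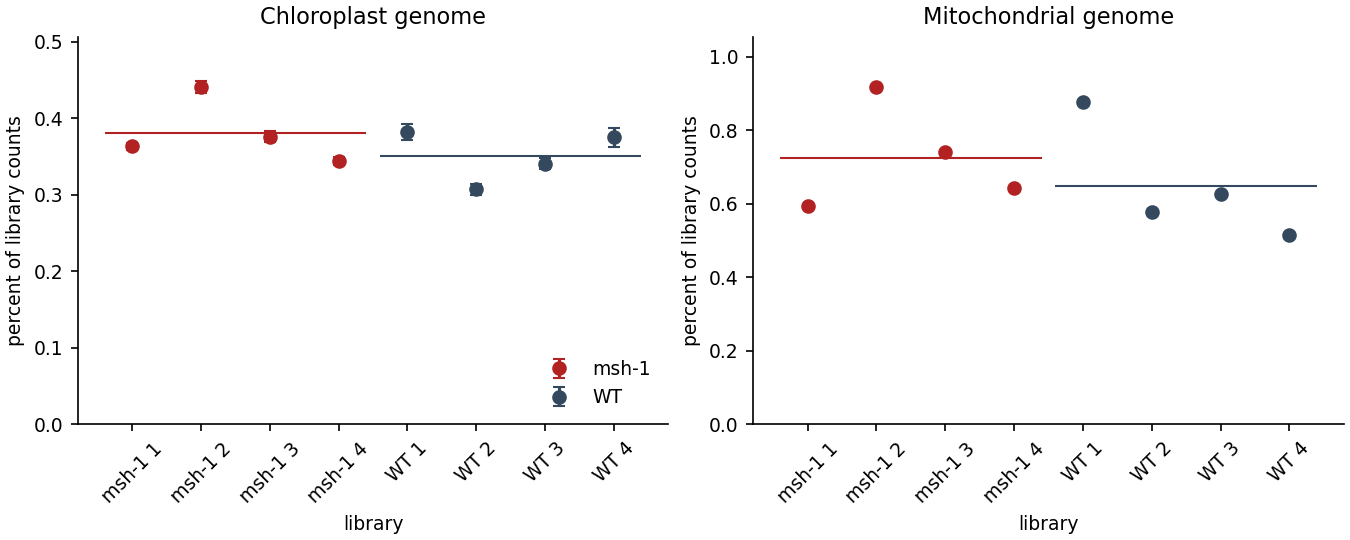
Percent of all library counts (vertical axes) held by chloroplast rows (left) and mitochondrial rows (right) in each of the 8 libraries (horizontal axes). Points are libraries, *msh-1* in red and WT in blue, horizontal lines are genotype means, and bars on the left are exact binomial 95% intervals; the chloroplast share lies between 0.307% and 0.441% and the genotypes overlap in both panels.

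Depth differed between the genotypes without overlap, at 2590800 to 6500907 counts in *msh-1* and 959004 to 2498295 in WT, and chloroplast counts ran from 11413 to 23609 in *msh-1* and from 3598 to 8517 in WT. Genes of seed maturation (9 listed) summed to between 51595 and 58354 CPM (counts per 1e6 counts of the scaled library) in *msh-1* and between 49208 and 62121 CPM in WT. The 4 markers of the silique wall and its valve margin summed to 5.87 to 11.3 CPM in *msh-1* and 4.33 to 17.5 CPM in WT. Most of that was *SHP1*, at 6.35 ± 2.14 CPM in *msh-1* and 8.49 ± 4.30 CPM in WT (SD, n = 4 each). *AGL8* averaged 2.36 CPM in *msh-1* and 4.14 CPM in WT, and *SHP2* 0.31 and 0 CPM. *IND*, which marks the valve margin, was at 0 in all 8 libraries. Of the 9 maturation genes 1 was called, where 0.413% of all tested genes were. It was the seed storage albumin *SESA4*, lower in *msh-1* (798 ± 142 CPM in *msh-1* and 1332 ± 279.9 CPM in WT, SD, n = 4 each), with an edgeR adjusted p of 0.0454. An endosperm list (2 genes, nearly all *EPR1*) summed to 20965 to 37012 CPM in *msh-1* and 15425 to 38100 CPM in WT, and a seed coat list (3 genes) stayed at or under 3.51 CPM everywhere. Markers of the wall of the siliques named in the labels were thus low in sum, at 17.5 CPM or less, beside abundant seed transcripts. *msh-1* 1 and WT 4, the deepest and the shallowest library, stand apart from the rest of their genotypes in earlier results of these data, and values that moved most without them are given beside the results or in the closing section.

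The chloroplast counts were concentrated in few genes. Of the 133 members, 103 had at least 1 count in some library and 30 had none, and 66 were counted in all 8 libraries. The number of members with a count was 87 to 95 per library in *msh-1* and 70 to 83 in WT; after all libraries were thinned to the depth of the shallowest, the medians were 74 to 79 in *msh-1* and 70 to 77 in WT, which overlap. At the shallowest depth a count of 0 allows up to 3 counts, or 3.25 CPM. The 3 members with the most counts held 32.5% of all 86011 chloroplast counts, the top 10 held 66.1% and the top 20 held 83.6%. The top 10 took 64.4% to 66.7% of the chloroplast counts in *msh-1* and 63.9% to 69.4% in WT.

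Many IDs with neighbouring numbers had almost no counts. In the runs ATCG00830 to ATCG01000 and ATCG01140 to ATCG01310, which were picked out after their values were seen, 27 of 37 members had 0 counts and the whole group had 25 counts over 8 libraries, at most 7 for any member. *rpl2*, at the end of the second run, had 1 count in *msh-1* 1 and 0 in the other 7 libraries. It is the only one of the 6 named genes with an identical second copy. How reads that fit both copies were counted is not given in the sources used here, so its part in the low count was not tested.

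Which gene led depended on the library. ATCG01130 had the most counts over all libraries (9573), followed by ATCG00470 (9432) and ATCG00340 (8972). ATCG01130 led in *msh-1* 1, 3 and 4, ATCG00470 in *msh-1* 2, WT 2 and WT 4, and ATCG00340 in WT 1 and WT 3. ATCG01130 took 13.3%, 7.25%, 12.7% and 12.1% of the chloroplast counts in the *msh-1* libraries 1 to 4 and 8.44%, 9.30%, 9.49% and 11.5% in the WT libraries 1 to 4. Its mean share was 11.3% ± 2.76 in *msh-1* and 9.69% ± 1.31 in WT (SD, n = 4 each), with *msh-1* 2 below all 4 WT libraries and the other 3 *msh-1* libraries above them. At the level of CPM, ATCG01130 reached 497, 313, 466 and 410 in *msh-1* and 330, 282, 320 and 450 in WT, and the edgeR adjusted p was 0.622. Its log2 fold change was 0.30 ± 0.15 (SE), and 0.36 without *msh-1* 1 and WT 4 together.

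ATCG00470 measured 392, 497, 380 and 388 CPM in *msh-1* and 359, 327, 407 and 496 CPM in WT. ATCG00340 measured 368, 463, 345 and 345 CPM in *msh-1* and 425, 326, 449 and 376 CPM in WT. In both genes the genotypes overlapped, and the log2 fold changes of *msh-1* over WT were 0.065 ± 0.124 and -0.052 ± 0.117 (SE). Counts of a 3′ method are not divided by transcript length here, and levels are therefore compared between libraries and not read as molecules per gene.

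Several members varied more between libraries of a genotype than between genotypes. ATCG00020 was at 159, 389, 223 and 161 CPM in *msh-1* and 352, 196, 223 and 151 CPM in WT, so that *msh-1* 2 and WT 1 were high while *msh-1* 1, *msh-1* 4 and WT 4 were low. ATCG01020 ran the other way, at 244, 136, 175 and 194 CPM in *msh-1* and 156, 149, 154 and 227 CPM in WT, and its log2 fold change of 0.15 became 0.012 without *msh-1* 1 and 0.30 without WT 4. The ratio of ATCG01130 to ATCG00020 counts, a pair chosen after their values were seen, was 3.12, 0.804, 2.08 and 2.55 in *msh-1* libraries 1 to 4, against 0.937, 1.44, 1.44 and 2.99 in WT libraries 1 to 4. The lowest value of each genotype stood in *msh-1* 2 and WT 1, which also had the highest mitochondrial shares. The highest values stood in *msh-1* 1 and WT 4, the libraries in which nuclear-encoded photosynthesis genes were lowest.

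Those nuclear genes are a list of 32 subunits of the same complexes and of Rubisco. They summed to 180, 406, 338 and 339 CPM in *msh-1* and 407, 364, 356 and 150 CPM in WT, and the 17 listed light-harvesting genes summed to 124, 257, 274 and 280 CPM in *msh-1* and 194, 175, 173 and 79.1 CPM in WT. The chloroplast total in *msh-1* 1 and WT 4 was not low: it was 3745 CPM in *msh-1* 1, within the 3380 to 4315 CPM of the other *msh-1* libraries, and 3898 CPM in WT 4, within the 3028 to 3906 CPM of the other WT libraries. The part that these differences between libraries have in any chloroplast value was not tested.

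**Figure D2:**
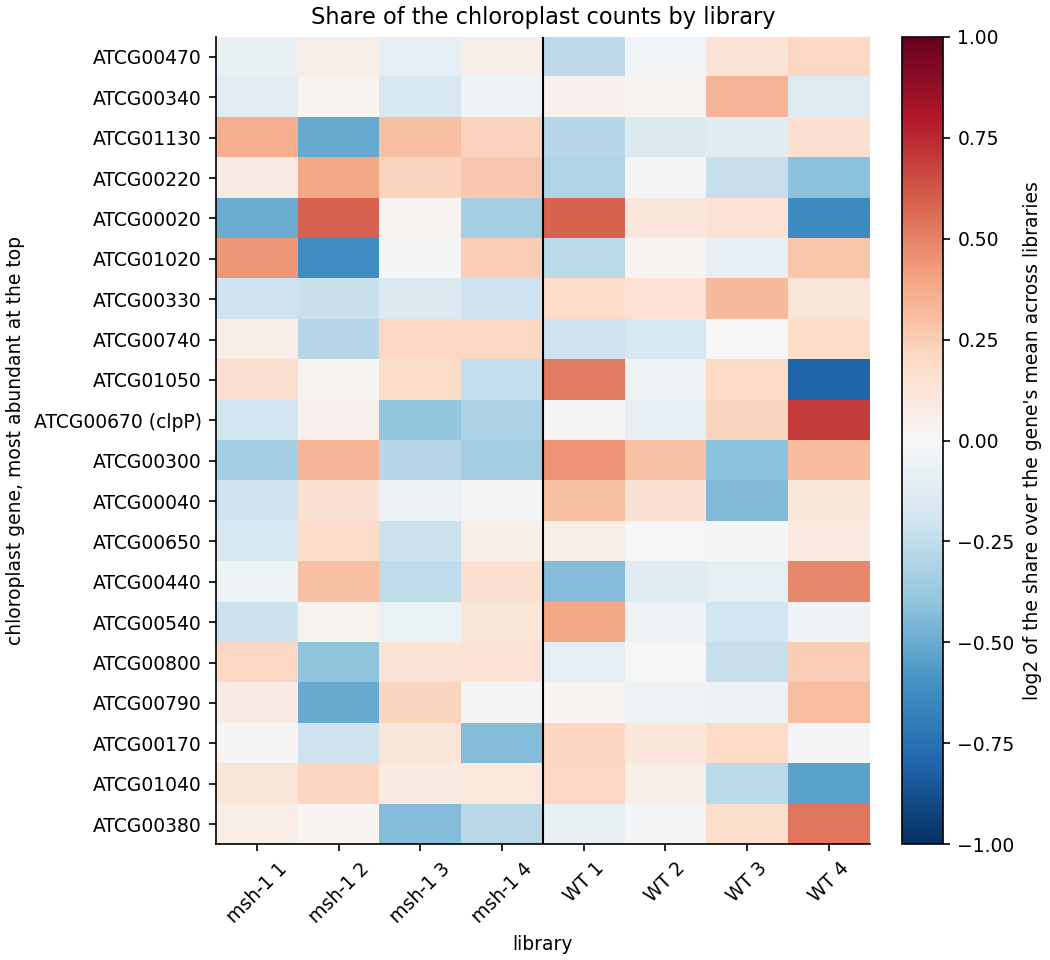
Share of the chloroplast counts held by each of the 20 most abundant chloroplast genes (rows) in each library (columns, *msh-1* left of the line and WT right), as log2 of the share over the mean of that gene across libraries; red is above the mean and blue below. ATCG00020 is red in *msh-1* 2 and WT 1 and blue in *msh-1* 1 and WT 4, where ATCG01130 and ATCG01020 are red.

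Other members of the top 20 also overlapped between the genotypes. ATCG00740 was at 176, 160, 190 and 175 CPM in *msh-1* and 152, 121, 152 and 198 CPM in WT, and ATCG01050 at 168, 175, 166 and 114 CPM in *msh-1* and 223, 117, 155 and 88.8 CPM in WT. The 10 members from ATCG00300 downwards in the order of levels (ATCG00300, ATCG00040, ATCG00650, ATCG00440, ATCG00540, ATCG00800, ATCG00790, ATCG00170, ATCG01040 and ATCG00380) averaged 94.0 down to 44.7 CPM. In each of these 10 the genotypes overlapped. Their log2 fold changes ran from -0.20 for ATCG00300 to 0.35 for ATCG01040, whose edgeR adjusted p was 0.56, the smallest of the 10. Without *msh-1* 1 and WT 4 together ATCG00440 was at 0.45 in place of 0.19, and ATCG00300 at -0.028.

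**Figure D3:**
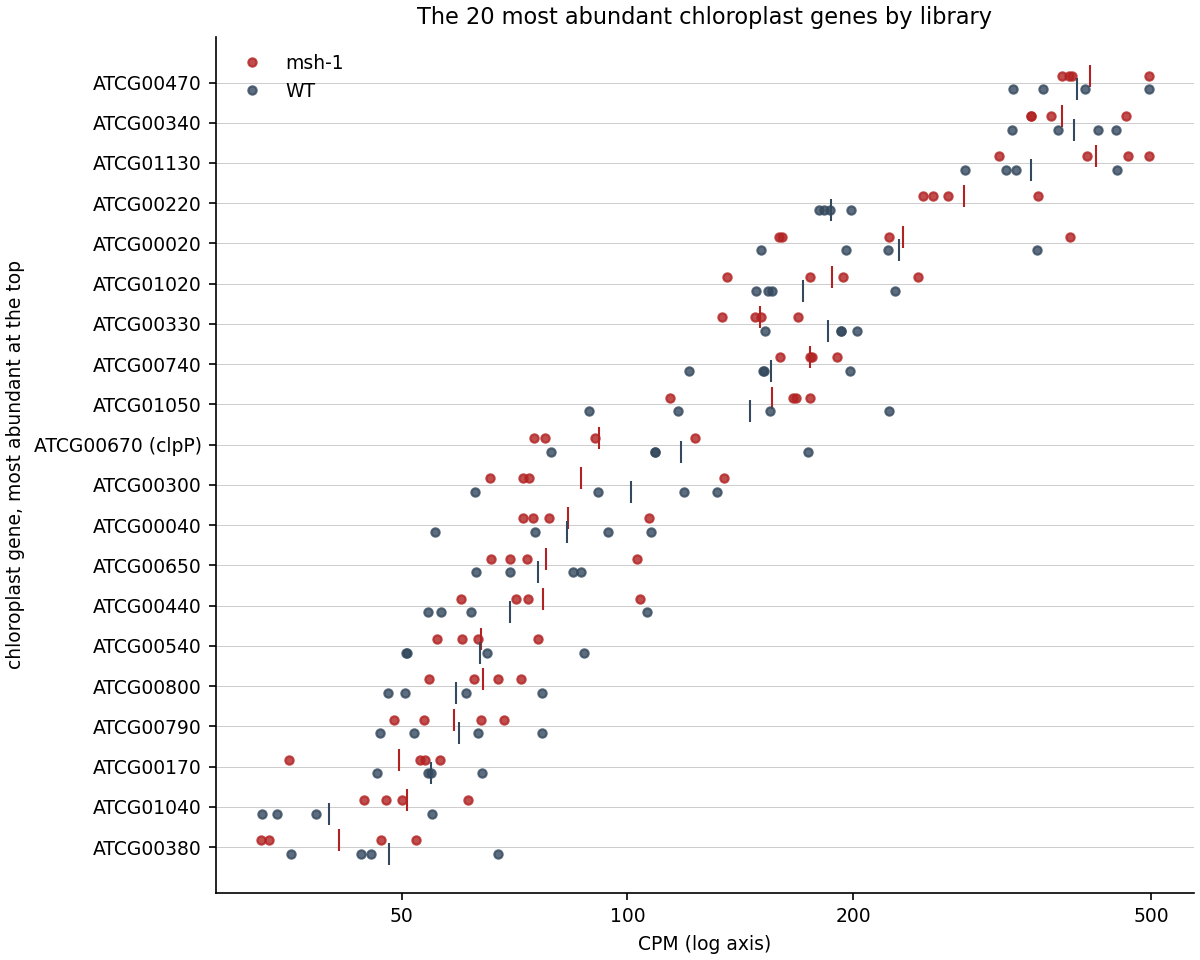
CPM (horizontal, log axis) of the 20 chloroplast genes with the highest mean CPM (rows, most abundant at the top) in *msh-1* (red, upper points of each row) and WT (blue, lower points). Each point is a library and vertical ticks are genotype means; ATCG00220 is the only row in which all 4 *msh-1* points lie above all 4 WT points.

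The comparison of the genotypes asks whether chloroplast transcripts differ when *MUSHER* is disrupted. edgeR's quasi-likelihood test was fitted to all genes, and a gene was called at a Benjamini-Hochberg adjusted p under 0.05 together with a fold change above 1.5. Of the 133 chloroplast members 51 passed the filter on low counts, and they held 98.4% of the chloroplast counts; the 82 that did not pass had at most 105 counts over 8 libraries. Only ATCG00220 was called, higher in *msh-1*, and 0 members were called lower (1 with DESeq2 and 0 with limma-voom, which called 1 and 0 members higher). That is 1 of 51 (1.96%), beside 45 of 10902 genes (0.413%) over the whole table. At an unadjusted p under 0.05, 8 members were higher in *msh-1* (15.7%, against 3.98% of all tested genes) and 2 were lower (3.92%, against 4.5%). Scaling to the chloroplast total removes by construction any shift the members share, so it cannot decide on that excess. On that scale 2 members were higher at an unadjusted edgeR p under 0.05 (ATCG00220 and ATCG00770), where 1.02% of all tested genes were. Another 3 were lower (ATCG00330, *rpl20* and *clpP*), where 6.38% of all tested genes were. Those shares of all tested genes are displaced by the same scaling, from 3.98% higher and 4.5% lower. The counts of members are therefore not read against them. The CPM of the genotypes did not overlap in 3 members (5.88%), beside 4.76% of all tested genes.

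Most members differed little. The fold change was within 1.5 in either direction in 47 of the 51 members, 38 were above 0 and 13 below on the log2 scale, and their median log2 fold change was 0.11 beside -0.011 for all tested genes. These members share libraries and a chloroplast total, so their signs are not independent. Relative to the chloroplast total instead of the whole library, which centres it by construction, the median was 0.001. It was 0.115 with DESeq2 size factors, 0.132 with library totals only and 0.12 with nuclear rows only for scaling.

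**Figure D4:**
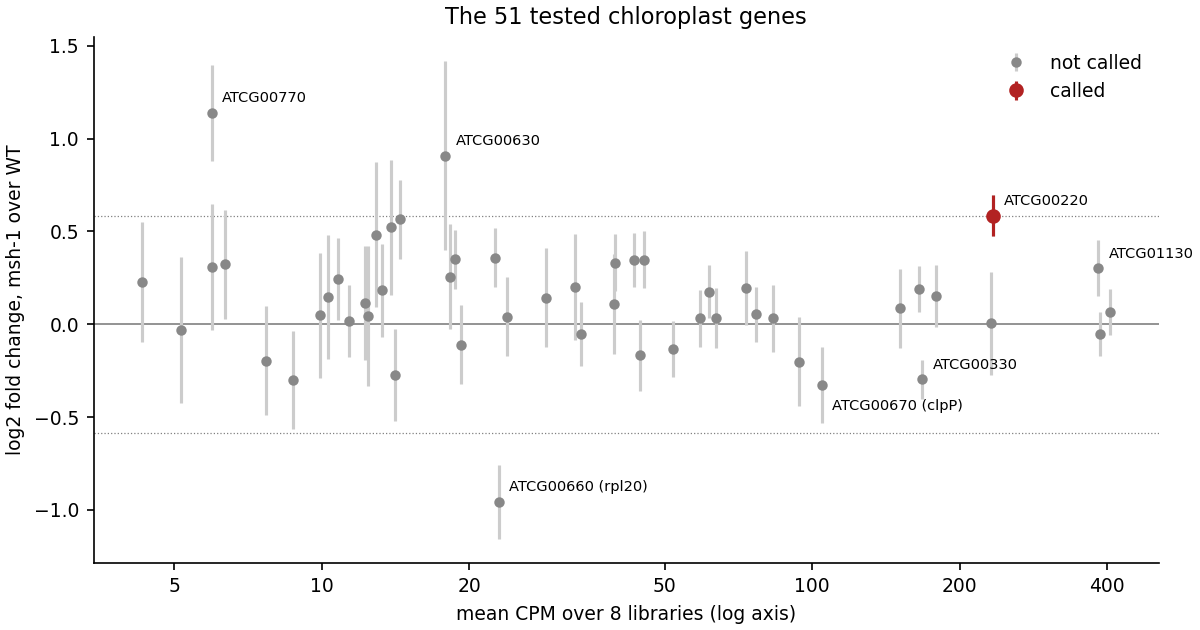
Log2 fold change of *msh-1* over WT (vertical; bars are SE) against mean CPM over 8 libraries (horizontal, log axis) for the 51 tested chloroplast genes; dotted lines mark a fold change of 1.5 in either direction. The called gene, ATCG00220, is in red on the upper line, and *rpl20* at -0.96, ATCG00630 at 0.91 and ATCG00770 at 1.14 lie beyond the lines without being called.

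ATCG00220, the fourth most abundant member, was at 248, 353, 268 and 256 CPM in *msh-1*, against 199, 187, 180 and 183 CPM in WT. All *msh-1* libraries were above all WT libraries, with *msh-1* 2 the highest, and the WT values were the closest together of any tested member. It averaged 281 ± 48.6 CPM in *msh-1* and 187 ± 8.17 CPM in WT (SD, n = 4 each). The log2 fold change was 0.585 ± 0.11 (SE), which is 1.5003-fold and so only just past the fold threshold, with an edgeR adjusted p of 0.0365. The exact two-sided permutation test gave p = 0.0286, the smallest that 4 against 4 libraries allow. That p is unadjusted and follows from the lack of overlap alone. Within the chloroplast counts it took 6.62%, 8.18%, 7.32% and 7.56% in *msh-1* and 5.09%, 6.16%, 5.34% and 4.70% in WT, again without overlap. Measured against the chloroplast total its log2 fold change was 0.47, and the edgeR adjusted p was 0.223.

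The call of ATCG00220 turned on the settings. It was lost when any single library other than *msh-1* 1 was left out: the adjusted p was then 0.0689 without *msh-1* 3, 0.063 without *msh-1* 4, 0.138 without WT 1, 0.198 without WT 2 and 0.197 without WT 3 (edgeR), while without *msh-1* 2 and without WT 4 the adjusted p was 0.0112 and 0.0325 but the fold change fell under 1.5, at log2 values of 0.46 and 0.577. It was kept without *msh-1* 1 (log2 0.65) and without *msh-1* 1 and WT 4 together (log2 0.64).

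*rpl20*, whose product is a protein of the large subunit of the chloroplast ribosome, had the lowest fold change of the tested members. It was at 15.5, 20.8, 15.6 and 10.5 CPM in *msh-1*, from 98, 55, 51 and 45 counts, against 23.6, 26.5, 32.1 and 39.0 CPM in WT, from 31, 64, 81 and 36 counts. Every *msh-1* library was below every WT library. Means were 15.6 ± 4.19 CPM in *msh-1* and 30.3 ± 6.79 CPM in WT (SD, n = 4 each), for a log2 fold change of -0.96 ± 0.20 (SE). It did not pass the test, with an edgeR adjusted p of 0.0633. The exact permutation p of 0.0286, the smallest possible, is unadjusted and again follows from the lack of overlap. Relative to the chloroplast total the log2 fold change was -1.07 and the edgeR adjusted p 0.00963, and DESeq2 gave an adjusted p of 0.0163.

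*clpP*, which lies upstream of *rpl20* on the same strand, was at 90.6, 123, 77.7 and 75.1 CPM in *msh-1* and 109, 79.0, 109 and 174 CPM in WT. WT 4 was the highest and the other libraries overlapped, and the log2 fold change was -0.33 ± 0.20 (SE; edgeR adjusted p = 0.72). Without WT 4 it was -0.11, and the same without *msh-1* 1 and WT 4 together. No test of the difference between *rpl20* and *clpP* was made.

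ATCG00770 had the highest fold change. It was at 9.04, 9.45, 8.25 and 6.55 CPM in *msh-1* and 3.05, 4.55, 3.56 and 3.25 CPM in WT, without overlap. The counts behind these values were 57, 25, 27 and 28 in *msh-1* and 4, 11, 9 and 3 in WT, so WT 4 is at the floor of 3 counts. The log2 fold change of 1.14 ± 0.26 (SE) had an edgeR adjusted p of 0.0955. The unadjusted exact permutation p was 0.0286, which the lack of overlap fixes.

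**Figure D5:**
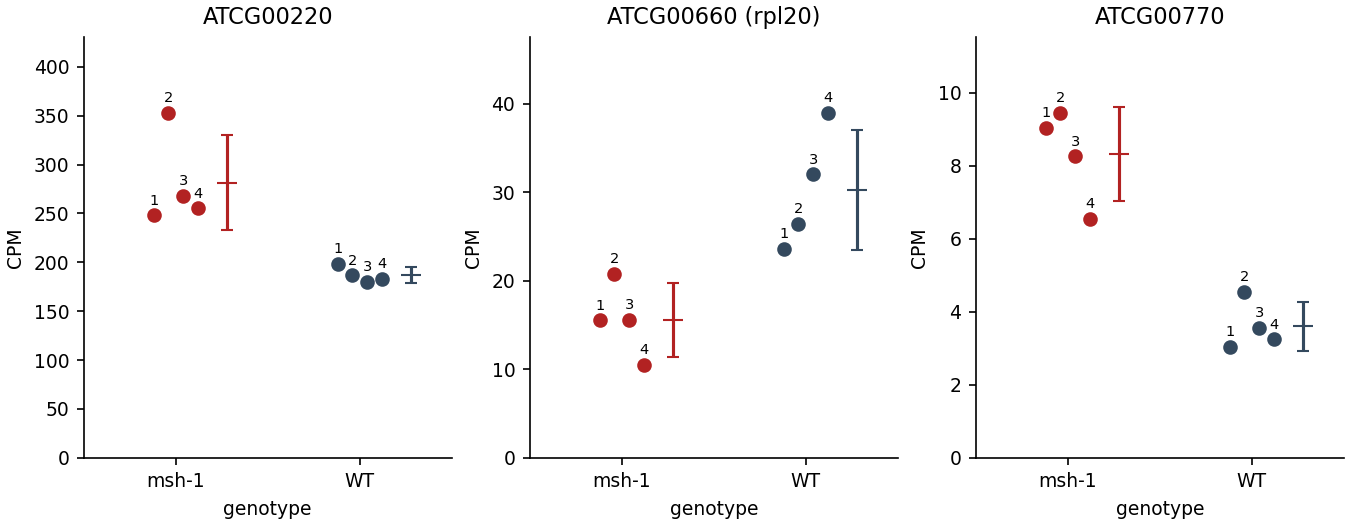
CPM (vertical, starting at 0) of ATCG00220, *rpl20* (ATCG00660) and ATCG00770 in *msh-1* (left, red) and WT (right, blue); numbers are library numbers, and the bars beside the points are the mean and SD of 4 libraries. These are the 3 tested chloroplast genes in which the genotypes do not overlap, and of them only ATCG00220 passed the test.

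ATCG00630 had the next highest fold change and the widest spread. It was at 40.5, 14.4, 21.1 and 20.4 CPM in *msh-1* and 3.05, 32.7, 4.36 and 6.5 CPM in WT. Apart from WT 2, which had 79 counts where the other WT libraries had 4, 11 and 6, the *msh-1* libraries were higher. The log2 fold change was 0.91 ± 0.51 (SE; edgeR adjusted p = 0.676), and without WT 2 it was 2.49 (edgeR adjusted p = 0.112). Without *msh-1* 1 and WT 4 together it was 0.36.

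ATCG00330 was at 148, 169, 151 and 134 CPM in *msh-1* and 203, 153, 192 and 193 CPM in WT, with WT 2 inside the *msh-1* range. As a share of the chloroplast counts it was even within each genotype, at 3.96%, 3.92%, 4.11% and 3.96% in *msh-1* and 5.19%, 5.04%, 5.71% and 4.95% in WT, and on that scale the genotypes did not overlap. The log2 fold change was -0.296 ± 0.105 (SE; edgeR adjusted p = 0.407), and relative to the chloroplast total -0.39 (edgeR adjusted p = 0.373). ATCG00270, among the 3 lowest fold changes, was at 8.57, 8.32, 8.87 and 5.38 CPM in *msh-1* and 15.2, 8.69, 8.32 and 6.5 CPM in WT, and its log2 fold change was -0.30 ± 0.26 (SE; edgeR adjusted p = 0.811).

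The genes of the NDH complex that could be named showed no difference beyond their spread. *ndhJ* was at 24.3, 15.1, 10.1 and 7.02 CPM in *msh-1* and 13.7, 6.62, 9.11 and 17.3 CPM in WT, and *ndhK* at 14.0, 9.07, 22.9 and 7.96 CPM in *msh-1* and 6.85, 14.9, 19.4 and 4.33 CPM in WT. *msh-1* 4 was the lowest *msh-1* library for both genes, while WT 4 was the highest WT library for *ndhJ* and the lowest for *ndhK*. The log2 fold changes were 0.48 ± 0.39 for *ndhJ* and 0.043 ± 0.376 for *ndhK* (SE), and -0.0050 and -0.0081 without *msh-1* 1. *cemA* was at 9.99, 17.4, 11.3 and 10.5 CPM in *msh-1* and 19.8, 6.21, 8.71 and 14.1 CPM in WT, with a log2 fold change of 0.114 ± 0.308 (SE). In the shallow libraries WT 1 and WT 4 only 4 to 26 counts lie behind each of these values.

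Nuclear genes that act with the chloroplast genome were counted in lists. Beside each list stand the shares over all tested genes in edgeR. There 0.413% were called, and at an unadjusted p under 0.05 3.98% were higher and 4.5% lower in *msh-1*. Of the 32 nuclear subunits 21 were tested and 0 were called by edgeR (3 at an unadjusted p under 0.05; 1 call with DESeq2, *RBCS3B*, and 0 with limma-voom), and their median log2 fold change was -0.079; the most abundant were *PSBR* of photosystem II at 52.1 ± 31.2 CPM in *msh-1* and 84.8 ± 33.3 CPM in WT, *PDE334* of the ATP synthase at 37.0 ± 3.38 CPM in *msh-1* and 38.9 ± 6.35 CPM in WT, and *RBCS1A*, a small subunit of Rubisco, at 27.2 ± 9.99 CPM in *msh-1* and 24.7 ± 10.5 CPM in WT (SD, n = 4 each). Of the 17 light-harvesting genes 12 were tested and 0 called by edgeR (4 at an unadjusted p under 0.05, all higher in *msh-1*, which is 33.3% beside 3.98% of all tested genes; 0 called with limma-voom), with a median of 0.45 and 10 above 0. DESeq2, which called 0.552% of the genes it tested, called *LHCB5* and also *CAB3*, which did not pass the edgeR filter and had 0 to 2 counts in the WT libraries. Their most abundant members were *LHCB4.1* at 53.6 ± 8.55 CPM in *msh-1* and 49.1 ± 9.76 CPM in WT, *LHB1B2* at 25.7 ± 14.9 CPM in *msh-1* and 15.7 ± 6.38 CPM in WT, and *CAB1* at 29.9 ± 13.5 CPM in *msh-1* and 10.3 ± 7.12 CPM in WT.

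Phage-type polymerases were listed whatever organelle they serve, *MGP3* among them, so the transcription list is not limited to the chloroplast. This list (sigma factors, phage-type polymerases and proteins associated with the bacterial-type polymerase) had 14 of 21 genes tested, 0 called by edgeR, DESeq2 or limma-voom (1 at an unadjusted p under 0.05 in edgeR) and a median log2 fold change of 0.005. *PTAC6* was at 43.8 ± 6.77 CPM in *msh-1* and 42.9 ± 2.82 CPM in WT, *TRX z* at 23.3 ± 1.2 CPM in *msh-1* and 25.2 ± 1.64 CPM in WT, and *PDE312* at 16.1 ± 3.34 CPM in *msh-1* and 15.9 ± 6.20 CPM in WT (SD, n = 4 each), all 3 being proteins that attach to that polymerase. The list of chloroplast RNA processing and stability had 7 of 11 genes tested and 0 called by edgeR, DESeq2 or limma-voom (1 at an unadjusted p under 0.05 in edgeR), 6 of the 7 were below 0, and the median was -0.28. In each of the 7 tested genes the CPM of the genotypes overlapped, while 4.76% of all tested genes had no overlap. The list had a mean sum of 85.8 CPM in *msh-1* and 106 CPM in WT, of which *GUN1* alone held 39.7 and 49.5 CPM. A gap in that sum is therefore not read as a change shared by the list. The summed level of the list, which was not tested, was 79.5 to 90.3 CPM in *msh-1* and 94.6 to 120 CPM in WT, without overlap. Most of it was *GUN1*, a pentatricopeptide repeat protein of chloroplast-to-nucleus signalling, at 39.7 ± 3.16 CPM in *msh-1* and 49.5 ± 4.50 CPM in WT (log2 fold change -0.30 ± 0.11, SE; edgeR adjusted p = 0.417), *EMB2730*, an exoribonuclease, at 13.8 ± 1.86 CPM in *msh-1* and 19.1 ± 5.38 CPM in WT, and *HCF173*, needed for translation of a photosystem II message, at 8.72 ± 2.13 CPM in *msh-1* and 11.2 ± 2.99 CPM in WT.

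Mitochondrial genes, the nearest comparison, had 21 of 152 rows tested and 0 called by edgeR, DESeq2 or limma-voom (2 at an unadjusted p under 0.05 in edgeR), with a median log2 fold change of 0.10, close to the 0.11 of the chloroplast genes. Their counts were more concentrated: ATMG00020 alone was at 5632 ± 986 CPM in *msh-1* and 5145 ± 1588 CPM in WT, ATMG01390 at 999.6 ± 256 CPM in *msh-1* and 896 ± 145 CPM in WT, and ATMG01360 at 123 ± 49.6 CPM in *msh-1* and 107 ± 46.3 CPM in WT (SD, n = 4 each).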

How the data were processed

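Per the labels and the study's methods, cDNA was primed on total RNA with oligo(dT) carrying UMIs, cut with Tn5 and sequenced on a NextSeq. The authors used STAR 2.7.8a with TAIR10 for alignment and BRBseqTools to sort reads into libraries. The deposited values are raw counts of each gene in 8 libraries, with no scaling applied. Annotation, strand and whether UMIs were collapsed are not given in the sources used here; overlapping genes may therefore share reads. The labels call the 4 libraries per genotype biological replicates.

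msh-1 was set against WT on the whole table with edgeR 4.0.16 under R 4.3.3 (TMM factors, filterByExpr, quasi-likelihood test, Benjamini-Hochberg adjustment). SEs were derived from the log2 fold change and its F statistic. CPM uses TMM-scaled library sizes; the exact permutation test used log2(CPM + 0.5) over 70 assignments. DESeq2 1.42.0, the authors' tool, limma-voom (limma 3.58.1), other scalings, filters, equal depth (11 draws), a replicate block and left-out libraries were alternatives. The fits were tested on simulated data.

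Named genes are the 20 members with the highest mean CPM, called members, the 3 highest and 3 lowest fold changes, the 3 smallest p-values, the 3 most abundant genes of each list, and 6 members the reference names; 1 further member is not reported here. Members and lists were chosen with earlier results of these data known. Role groups within the chloroplast genome, protein-coding genes alone and the set without the inverted repeat could not be formed, since the IDs carry no type or position here. ChIRP-seq and ChIDP-seq data were not used here.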

Additional observations from a re-analysis of the deposited data

Results flagged for a closer look

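Among 60 sets of 4 libraries of a genotype (27 chloroplast genes and 3 shares of counts), 8 held a library far from the other 3 by Dixon's criterion. For independent sets chance gives about 1 in 20, or 3 of 60. These sets share libraries and a chloroplast total, and some genes were picked for extreme fold changes. The 8 are therefore not read as an excess over chance. *msh-1* 2 was high for ATCG00470 (497 CPM, against 380 to 392 in *msh-1* 1, 3 and 4) and for ATCG00300 (135 CPM, against 65.5 to 74.0). *msh-1* 4 was low for ATCG01050 (114 CPM, against 166 to 175), ATCG00170 (35.3 CPM, against 52.9 to 56.3) and ATCG00270 (5.38 CPM, against 8.32 to 8.87). WT 4 was high for ATCG01020 (227 CPM, against 149 to 156 in the other WT libraries) and ATCG00440 (106 CPM, against 54.2 to 61.8). WT 2 was high for ATCG00630 (32.7 CPM, against 3.05 to 6.5). None of these genes was called between the genotypes in the edgeR fit of all libraries.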

How the results depend on the processing

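Depth and genotype cannot be told apart, since every *msh-1* library is deeper than every WT library; a low count limits most members outside the top 20. The count of chloroplast genes higher in *msh-1* was 1 with DESeq2 size factors, nuclear scaling or DESeq2 itself, 3 with no filter (ATCG00220, ATCG00630 and ATCG00770), and 0 with library totals only, relative to the chloroplast total, with the stricter filter, with limma-voom, at equal depth and with the replicate block; leaving out 1 library gave 0 to 1. The count of those lower was 1 (*rpl20* each time) relative to the chloroplast total, with no filter, with DESeq2 and without *msh-1* 1 and WT 4 together, and 0 to 1 with 1 library left out. It was 1 without *msh-1* 1 and without *msh-1* 2.

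Over all genes, 45 calls became 25 with library totals only, 438 with no filter, 24 with the stricter filter, 89 with DESeq2, 24 with limma-voom, 12 at equal depth, 280 without *msh-1* 1 and WT 4 together, and 4 to 210 with 1 library left out. The labels number the replicates alike in both genotypes, but same-numbered libraries did not deviate together (r = -0.22, 0.15, 0.059 and -0.086 over genes), so the numbers were not taken to pair them; the replicate block gave 24 calls over all genes and 0 chloroplast calls. The median over the chloroplast genes was 0.001 relative to the chloroplast total, which centres it by construction, and 0.036 to 0.22 with 1 library left out, and the share differences kept their sign in the alternatives run.

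Signs turned only in members that were not called, but just 1 of the 51 tested members was called. The call of that member, ATCG00220, was itself lost in several alternatives. Relative to the chloroplast total, the log2 fold change was -0.031 for ATCG00470, -0.11 for ATCG00020, -0.0085 for ATCG01050, -0.075 for ATCG00040, -0.054 for ATCG00650, -0.065 for ATCG00540, -0.068 for ATCG00790 and -0.064 for *ndhK*. ATCG00020 was at -0.0093 with the stricter filter, -0.059 with limma-voom and -0.013 with the replicate block. Without *msh-1* 1 and WT 4 together ATCG01050 was at -0.088 and *ndhK* at -0.17, and at equal depth ATCG00540 was at -0.068 and ATCG00790 at -0.019. With 1 library left out the values ran from -0.031 to 0.18 for ATCG00470, -0.16 to 0.020 for ATCG00340, -0.35 to 0.27 for ATCG00020, -0.063 to 0.34 for ATCG01050, -0.14 to 0.18 for ATCG00040, -0.093 to 0.12 for ATCG00650, -0.074 to 0.22 for ATCG00540, -0.084 to 0.15 for ATCG00790, -0.22 to 0.0032 for ATCG00170, -0.0050 to 0.71 for *ndhJ*, -0.28 to 0.42 for *ndhK* and -0.16 to 0.45 for *cemA*. The causes were not tested. Alternatives limited to protein-coding genes or leaving out the inverted repeat were not run.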
